A study of Oryza sativa Japonica Group with 24 samples.

Results

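The genes described here are 7 core circadian clock genes of rice and a gene annotated as EARLY FLOWERING 4, 8 of the 57668 gene rows measured in roots and shoots of rice seedlings (Oryza sativa Japonica Group). They were picked by locus: LHY (LOC_Os08g06110), PRR73 (LOC_Os03g17570), PRR37 (LOC_Os07g49460), PRR95 (LOC_Os09g36220), PRR59 (LOC_Os11g05930), TOC1 (LOC_Os02g40510), GI (LOC_Os01g08700) and the EARLY FLOWERING 4 gene LOC_Os08g27870. This last gene was taken up for its level in spx4 libraries, so its values are a description with no test, and counts of genes past a test are over the 7 clock genes. The deposited annotation describes LHY as a homeobox-like protein, gives a response regulator receiver domain to PRR73, PRR37, PRR95 and PRR59, a CCT domain to TOC1 and no description to GI, and none of this goes against the names. None of the 8 overlaps another row of the table by its coordinates. RefSeq lists the symbol on the same chromosome for 6 of the 8, all but PRR59 and LOC_Os08g27870.

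The study set phosphate (Pi) supply and 2 genotypes against wild type. Messenger RNA was sequenced from 8 groups of 3 libraries: bHLH6 OV (an overexpression line of the transcription factor gene bHLH6), the spx4 T-DNA mutant and wild type (WT), all at 200 µM Pi, and WT at 10 µM Pi, each as root and as shoot. Low Pi below means 10 µM and high Pi 200 µM. Seedlings were 7 days old when a treatment of 2 weeks began, and each library pooled 3 seedlings. SPX4 is an intracellular phosphate sensor of the SPX family. All comparisons with WT at high Pi in a tissue share the same 3 control libraries. The labels call the plants Japanese rice and do not give the background of the spx4 line. They name neither the promoter that drives bHLH6, nor whether the bHLH6 OV line is 1 clone, nor the time of day of harvest. A change in the mean level of a rhythmic gene and a shift of its daily phase therefore cannot be told apart.

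Plant clocks are loops of transcriptional repressors that peak one after another through the day. LHY is a MYB-type repressor that peaks around dawn and holds down evening genes. The pseudo-response regulators follow: PRR73, PRR37, PRR95 and PRR59 repress LHY-type genes during the day, and TOC1, itself a pseudo-response regulator, does so in the evening. GI is an evening-expressed protein that links the clock to photoperiodic flowering, and in Arabidopsis EARLY FLOWERING 4 works with ELF3 and LUX in the evening complex. In rice, PRR37 and GI are also known as flowering time genes.

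The reads assigned to genes numbered between 21.0 and 29.6 M per library. Every value is FPKM, the reads of a gene scaled by its length and by a factor for its library. Behind each value of the 7 clock genes stood between 628 and 35642 reads. The root markers summed to between 3031 and 4103 FPKM in root libraries and between 10.1 and 36.6 FPKM in shoot libraries, and the green-tissue markers of photosynthesis ran the other way. In roots the 6 green markers summed to 576 to 810 FPKM in bHLH6 OV, 241 to 601 in spx4, 25.3 to 55.2 in WT at low Pi and 191 to 236 in WT at high Pi. In shoots they summed to 26223, 40452 and 51209 FPKM in the 3 bHLH6 OV libraries and to 66097 to 90313 in spx4. In WT shoots they summed to 18643, 55959 and 57807 in the 3 libraries at low Pi and 46866 to 61210 at high Pi. WT low Pi shoot replicate 1, the lowest, thus stood apart from its group. Shoot results at low Pi include it, and for some genes the value without it is given as well. In bHLH6 OV shoots replicate 1 was likewise the lowest of its group, and the bHLH6 OV shoot results include that library. bHLH6 averaged 134 FPKM in bHLH6 OV roots against 4.75 in WT roots, and SPX4 6.21 FPKM in spx4 roots against 11.3 in WT roots. IPS1, a Pi starvation marker, averaged 1593 FPKM in WT roots at low Pi and 1.47 at high Pi. In such bulk samples fewer cells of a type and less RNA per cell cannot be told apart.

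In WT at high Pi 4 of the 7 clock genes were higher in shoot and the other 3 stood near one level in both tissues. LHY had 12.9, 13.0 and 12.8 FPKM in the 3 root libraries and 108, 106 and 106 FPKM in the 3 shoot libraries, a mean 8.27 times as high in shoot. The shoot mean was 7.21 times the root mean for PRR37, 5.41 times for PRR95 and 3.97 times for PRR73. In each of these 4 genes every shoot library lay above every root library. The difference, root minus shoot on the log2(FPKM + 1) scale, was -2.95 for LHY, -2.74 for PRR37, -2.36 for PRR95 and -1.98 for PRR73, with limma adjusted p = 6.67e-16, 3.89e-15, 2.26e-14 and 3.86e-13. Of the other genes, PRR59 averaged 14.1 ± 0.83 FPKM in root and 12.2 ± 0.985 in shoot, TOC1 15.5 ± 0.481 and 15.2 ± 1.83, and GI 201 ± 4.18 and 220 ± 1.15 (SD, n = 3 libraries each). PRR59 was called higher in root by 0.19 (limma adjusted p = 0.0475), a call that ended without the filter on low genes, without WT root replicate 1 or 3 and without WT shoot replicate 2. In all 5 of the 7 clock genes were called, 1 higher and 4 lower in root, where 84.2% of all genes tested were called, 45.3% higher and 38.9% lower. A rescaling that gives each library the same sum of length-scaled reads (TPM) moved the median of all genes by 0.45 towards root here; on that scale the 4 lower calls held, at between -1.48 and -2.49, PRR59 was at 0.67, TOC1 at 0.52, and GI reversed, at 0.37 higher in root against -0.13 as deposited.

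**Figure D1:**
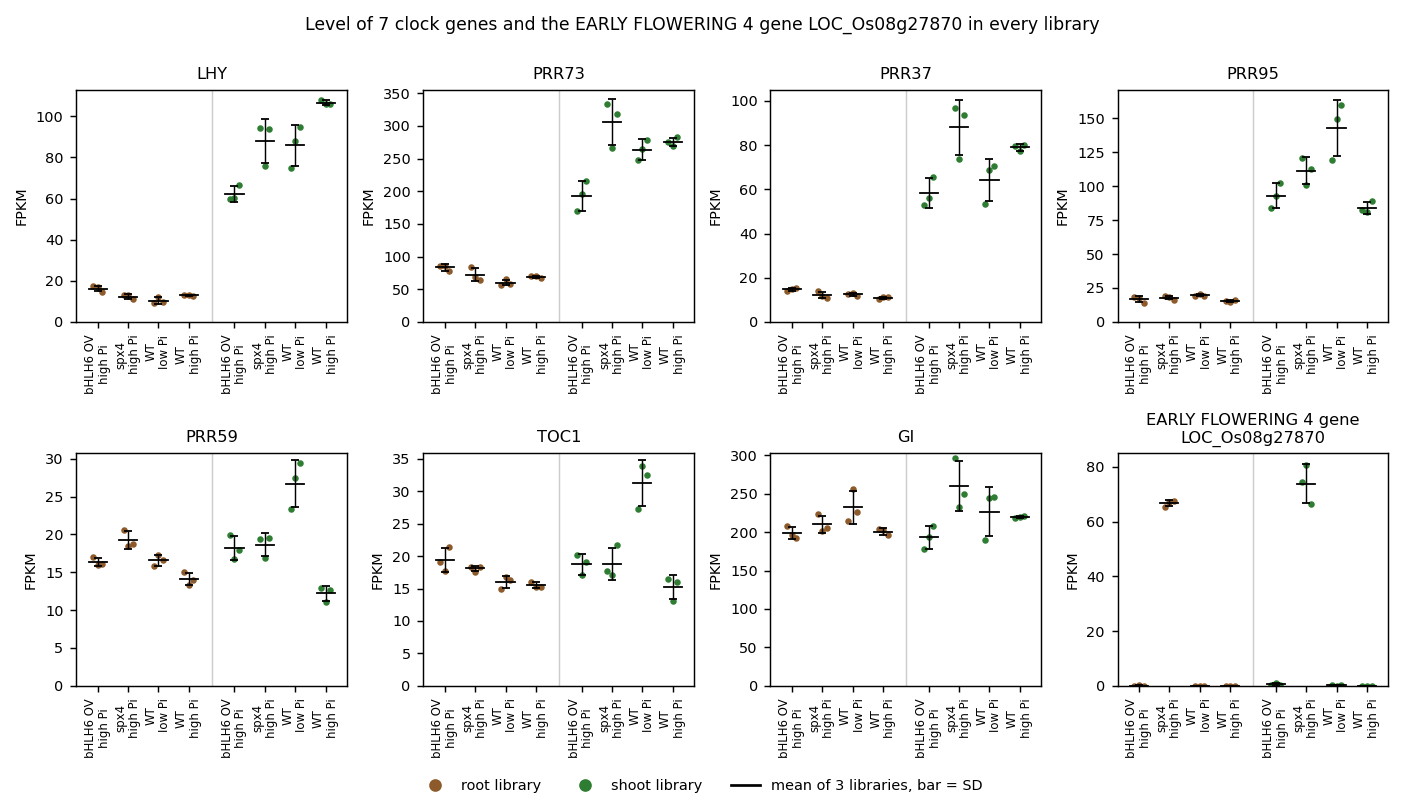
FPKM (vertical axes, from 0) of each of the 8 genes in the 24 libraries, with roots left and shoots right of the grey line; points are libraries, the horizontal line the mean of 3 and the bar 1 SD. LHY, PRR73, PRR37 and PRR95 were higher in shoots than in roots, TOC1 and PRR59 were highest in WT shoots at low Pi, and LOC_Os08g27870 was near 0 outside spx4.

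Against WT at high Pi, the number of clock genes called differed with the tissue and the comparison. A gene was called at a Benjamini-Hochberg adjusted p under 0.05 over all genes tested, in limma on log2(FPKM + 1). In bHLH6 OV roots 2 of the 7 were called, both higher, where 18.0% of all genes tested were called, 7.62% higher and 10.4% lower. In bHLH6 OV shoots 4 of the 7 were called, 1 higher and 3 lower, where 31.3% were, 14.0% higher and 17.3% lower. In spx4 roots 1 of 7 was called, where 2.46% of all genes were, 0.634% higher and 1.82% lower. In spx4 shoots also 1 of 7 was called, where 2.14% of all genes were, 0.725% higher and 1.42% lower. Both spx4 calls are PRR59, higher. In WT roots at low Pi 3 of 7 were called, 2 higher and 1 lower, against 31.4% of all genes, 15.3% higher and 16.1% lower. In WT shoots at low Pi 4 of 7 were called, 3 higher and 1 lower, against 48.2% of all genes, 22.2% higher and 26.0% lower. The median log2 fold change of the 7 genes was 0.26 in bHLH6 OV roots, 0.14 in spx4 roots and 0.18 in low Pi roots, beside medians of -0.02, -0.00 and 0.01 over all genes tested. In shoots it was -0.19 in bHLH6 OV, 0.24 in spx4 and 0.04 at low Pi, beside -0.05, 0.01 and -0.05 over all genes. In low Pi roots the count was 1 without WT root replicate 1 or 3 or low Pi root replicate 2 or 3, and 0 without WT root replicate 2. The bHLH6 OV root count was 1 without WT root replicate 2 or 3.

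**Figure D2:**
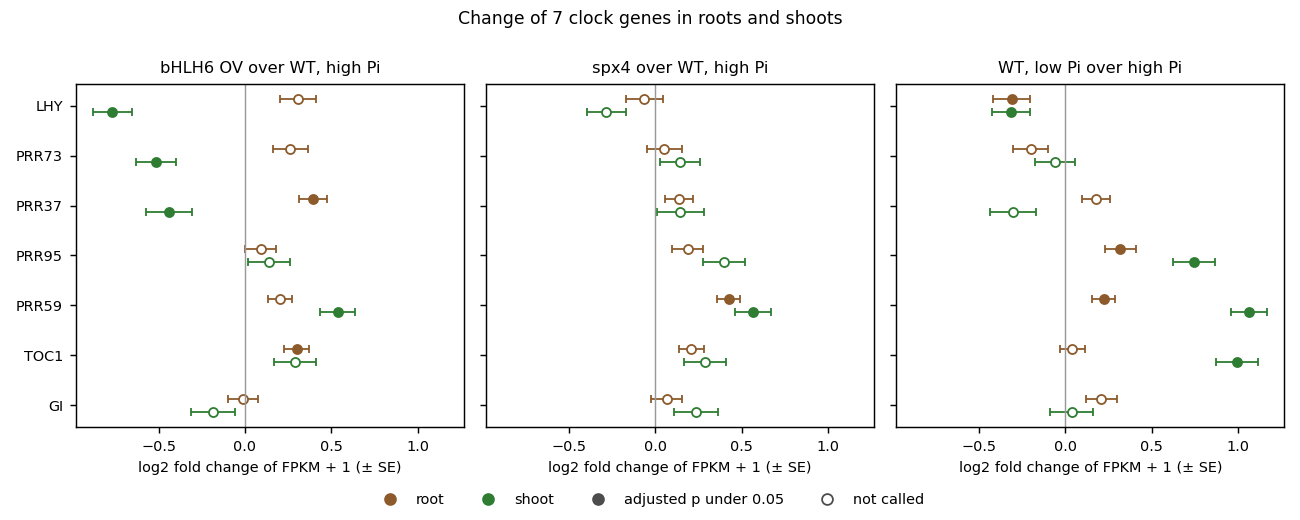
Log2 fold change of FPKM + 1 against WT at high Pi (horizontal axes, bar = SE, one scale in the 3 panels) of the 7 clock genes in bHLH6 OV, spx4 and WT at low Pi; brown is root, green is shoot, and filled points have a limma adjusted p under 0.05. LHY, PRR73 and PRR37 lie right of 0 in bHLH6 OV roots and left of 0 in bHLH6 OV shoots, and PRR59 and TOC1 lie farthest right in shoots at low Pi.

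LHY, the dawn repressor (Chr8:3365730-3373434, plus strand; coordinates are those of the deposited table, whose genome build is not given in the sources used here), was lower in bHLH6 OV shoots. It had 60.0, 60.2 and 66.8 FPKM in bHLH6 OV shoots, 94.3, 75.6 and 94.0 in spx4 shoots, 74.7, 88.2 and 94.6 in low Pi WT shoots and 108, 106 and 106 in WT shoots at high Pi. In roots it had 17.4, 16.7 and 14.6 FPKM in bHLH6 OV, 13.1, 12.9 and 11.0 in spx4, 8.99, 12.1 and 9.72 in WT at low Pi and 12.9, 13.0 and 12.8 in WT at high Pi. Every shoot library of the other groups lay below the lowest WT shoot library at high Pi, and every bHLH6 OV root library lay above the WT root libraries. The bHLH6 OV shoot mean was 0.584 of the WT mean, a log2 fold change of -0.77 (SE 0.11, limma adjusted p = 0.000456), and this call held under every alternative processing run, with -0.54 (limma adjusted p = 0.00182) on the TPM scale, which moved the median of all genes by 0.20 in this comparison. The 6 green markers had a median change of -0.41 in bHLH6 OV shoots, with 1 called lower. Their part in the falls of LHY, PRR73 and PRR37 there was not tested. In bHLH6 OV roots the change of LHY was 0.31 (SE 0.11, limma adjusted p = 0.0648), not past the threshold. The 2 effects differed from each other by 1.07, root minus shoot (SE 0.15, limma adjusted p = 3.73e-05), in a comparison where 29.4% of all genes differed, 15.1% towards root and 14.3% towards shoot. At low Pi LHY was lower by a log2 fold change of -0.31 in roots and -0.32 in shoots (limma adjusted p = 0.0427 and 0.0344). The 6 green markers summed to less in low Pi roots, 5 called lower, and their part in the root change was not tested. The root call ended without any one of the 3 WT root libraries at high Pi, without low Pi root replicate 1 or 3 and with no filter on low genes. The shoot call ended without any one of the 3 WT shoot libraries at high Pi, without low Pi replicate 1 (-0.22, limma adjusted p = 0.101) or 2, with no filter, after median-ratio scaling and on the TPM scale (-0.20). In spx4 the changes were -0.06 in roots and -0.28 in shoots, neither past the threshold (limma adjusted p = 0.893 and 0.247). Among neighbours in the order of its 8 group means, the libraries of spx4 shoots and low Pi shoots overlapped. The spx4 roots overlapped both WT roots at high Pi and low Pi roots, which did not overlap each other.

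PRR73 (Chr3:9759479-9768690, minus strand), a daytime pseudo-response regulator, had the highest FPKM of the 4 shoot-biased genes. Its shoot values were 169, 195 and 215 FPKM in bHLH6 OV, 334, 266 and 319 in spx4, 248, 265 and 279 in WT at low Pi and 275, 269 and 282 in WT at high Pi. The root values were 86.2, 86.1 and 77.8 FPKM in bHLH6 OV, 84.0, 69.5 and 63.8 in spx4, 57.3, 65.2 and 58.4 in WT at low Pi and 70.2, 70.2 and 67.5 in WT at high Pi. bHLH6 OV libraries lay below all WT shoot libraries and above all WT root libraries, while spx4 libraries overlapped WT in both tissues. The log2 fold change in bHLH6 OV shoots was -0.52 (SE 0.12, limma adjusted p = 0.00659), and -0.29 (limma adjusted p = 0.0451) on the TPM scale. In bHLH6 OV roots it was 0.26 (limma adjusted p = 0.0971), and root minus shoot the effects differed by 0.78 (SE 0.15, limma adjusted p = 0.000752). None of the spx4 and low Pi changes of PRR73 passed the test; they ran between -0.20 (low Pi roots) and 0.15 (spx4 shoots).

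PRR37 (Chr7:29616705-29629223, plus strand), the pseudo-response regulator known in rice as a repressor of flowering in long days, followed LHY and PRR73 in the bHLH6 OV line. Its shoot values were 52.8, 55.9 and 65.8 FPKM in bHLH6 OV, 96.8, 73.7 and 93.7 in spx4, 53.4, 68.8 and 70.6 in WT at low Pi and 79.7, 77.2 and 80.1 in WT at high Pi. In roots it had 13.9, 14.8 and 15.3 FPKM in bHLH6 OV, 13.8, 11.7 and 11.1 in spx4, 12.8, 13.0 and 11.8 in WT at low Pi and 10.4, 11.2 and 11.3 in WT at high Pi. In both bHLH6 OV and low Pi, all libraries lay below WT at high Pi in shoots and above it in roots. The bHLH6 OV change was 0.39 in roots (SE 0.08, limma adjusted p = 0.00758) and -0.44 in shoots (SE 0.13, limma adjusted p = 0.0288), with a difference of 0.83 root minus shoot (SE 0.16, limma adjusted p = 0.000656). The root call and the difference held under every alternative; the shoot call ended on the TPM scale (-0.22, limma adjusted p = 0.145), without any one WT shoot library and without bHLH6 OV shoot replicate 1 or 2. At low Pi the changes of 0.18 in roots and -0.30 in shoots did not pass the test (limma adjusted p = 0.12 and 0.0832). Their difference of 0.48 did (SE 0.16, limma adjusted p = 0.0215, where 37.9% of all genes differed between the tissues, 18.6% towards root and 19.3% towards shoot), but not without low Pi shoot replicate 1 (0.35, limma adjusted p = 0.0613), without WT root replicate 1 or on the TPM scale. In the order of its 8 group means the libraries of low Pi and bHLH6 OV shoots overlapped, as did those of spx4 and WT shoots at high Pi. The spx4 roots overlapped both low Pi roots and WT roots at high Pi, which did not overlap each other.

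PRR95 (Chr9:20885172-20889843, minus strand) was higher at low Pi in both tissues. Its shoot values were 83.9, 92.3 and 103 FPKM in bHLH6 OV, 121, 101 and 112 in spx4, 119, 149 and 160 in WT at low Pi and 82.3, 80.9 and 89.2 in WT at high Pi. In roots PRR95 had 18.0, 17.8 and 14.3 FPKM in bHLH6 OV, 19.1, 18.1 and 16.5 in spx4, 19.3, 20.4 and 19.2 in WT at low Pi and 15.7, 14.6 and 16.3 in WT at high Pi. Low Pi and spx4 libraries lay above WT at high Pi in both tissues without overlap, and bHLH6 OV libraries overlapped WT in both. At low Pi the shoot mean was 1.70 times the high Pi mean, a log2 fold change of 0.75 (SE 0.12, limma adjusted p = 0.000485), and 0.87 without low Pi shoot replicate 1. The root change was 0.32 (SE 0.09, limma adjusted p = 0.021), and this call ended without WT root replicate 1 or 2 or low Pi root replicate 2. Root minus shoot the low Pi effects differed by -0.43 (SE 0.15, limma adjusted p = 0.0314), a call that ended in 9 of the alternatives, between -0.34 and -0.43 there. In spx4 the changes of 0.19 in roots and 0.40 in shoots did not pass (limma adjusted p = 0.408 and 0.138). The bHLH6 OV changes were 0.09 in roots and 0.14 in shoots (limma adjusted p = 0.52 and 0.417), the shoot one at 0.37 with limma adjusted p = 0.00784 on the TPM scale.

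PRR59 (Chr11:2788996-2793735, plus strand), the counterpart of the Arabidopsis regulators that act in the afternoon, was higher in all 3 groups in shoots and in spx4 and low Pi roots. Its shoot values were 19.9, 16.8 and 17.9 FPKM in bHLH6 OV, 19.4, 16.9 and 19.6 in spx4, 23.4, 27.4 and 29.4 in WT at low Pi and 12.9, 11.1 and 12.7 in WT at high Pi. In roots PRR59 had 17.0, 16.0 and 16.1 FPKM in bHLH6 OV, 20.6, 18.5 and 18.8 in spx4, 15.9, 17.3 and 16.6 in WT at low Pi and 15.0, 13.4 and 13.9 in WT at high Pi. In both tissues every library of the 3 groups lay above all WT libraries at high Pi. In shoots the means were 1.49 times the WT mean in bHLH6 OV, 1.52 times in spx4 and 2.18 times at low Pi. The log2 fold changes there were 0.54 in bHLH6 OV (SE 0.10, limma adjusted p = 0.00275), 0.57 in spx4 (SE 0.10, limma adjusted p = 0.0136) and 1.06 at low Pi (SE 0.10, limma adjusted p = 1.15e-05). Without low Pi shoot replicate 1 the last was 1.15. The bHLH6 OV and low Pi shoot calls held under every alternative, while the spx4 shoot call ended without WT shoot replicate 2, without spx4 shoot replicate 1 or 3 and on the TPM scale (0.47, limma adjusted p = 0.053). In roots the changes were 0.43 in spx4 (SE 0.07, limma adjusted p = 0.00438), which held under every alternative, 0.22 at low Pi (SE 0.07, limma adjusted p = 0.027) and 0.20 in bHLH6 OV (SE 0.07, limma adjusted p = 0.058). The low Pi root call ended on the TPM and median-ratio scales, without WT root replicate 2 or 3 and without low Pi root replicate 2 or 3.

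Tested directly, the low Pi effect on PRR59 was smaller in roots than in shoots, by -0.84 (SE 0.12, limma adjusted p = 2.66e-05). For bHLH6 OV the same difference of PRR59 was -0.33 (SE 0.12, limma adjusted p = 0.0459), and its call ended in 10 of the alternatives. For spx4 the difference of PRR59 was -0.14 (SE 0.12) with a limma adjusted p = 0.687, and none of the 7 genes had an unadjusted p under 0.05 for a difference of the spx4 effect between tissues, where limma called 1.83% of all genes, 0.748% towards root and 1.08% towards shoot.

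TOC1 (Chr2:24569294-24572560, plus strand), the evening pseudo-response regulator, was higher in WT shoots at low Pi. Its shoot values were 20.2, 17.0 and 19.1 FPKM in bHLH6 OV, 17.7, 17.0 and 21.6 in spx4, 27.3, 33.9 and 32.6 in WT at low Pi and 16.5, 13.1 and 16.0 in WT at high Pi. In roots TOC1 had 19.0, 17.7 and 21.4 FPKM in bHLH6 OV, 18.4, 17.6 and 18.3 in spx4, 15.0, 16.7 and 16.4 in WT at low Pi and 16.1, 15.3 and 15.2 in WT at high Pi. Low Pi shoots lay above every other library of the series for this gene, whereas low Pi roots overlapped WT roots at high Pi. The low Pi shoot mean was 2.06 times the high Pi mean, a log2 fold change of 0.99 (SE 0.12, limma adjusted p = 6.22e-05), and 1.09 without low Pi shoot replicate 1. In low Pi roots the change was 0.04 (limma adjusted p = 0.713), and the effect differed between the tissues by -0.95, root minus shoot (SE 0.14, limma adjusted p = 4.05e-05). The bHLH6 OV root change of 0.30 was called (SE 0.07, limma adjusted p = 0.0174), a call that ended when bHLH6 OV root replicate 3, or replicate 2 or 3 of the WT roots, was left out. All 6 green markers were called higher in bHLH6 OV roots, from 576 to 810 FPKM summed against 191 to 236 FPKM in WT roots, and their part in the root changes of TOC1 and PRR37 was not tested. In bHLH6 OV shoots the change was 0.29 (SE 0.12, limma adjusted p = 0.0915), past the threshold on the TPM scale (0.51, limma adjusted p = 0.0106) and after median-ratio scaling (0.35, limma adjusted p = 0.0445). In spx4 TOC1 was at 0.21 in roots and 0.29 in shoots (limma adjusted p = 0.219 and 0.281).

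GI (Chr1:4329152-4338486, minus strand) had the highest level of the 8 genes in root libraries, and no change against WT at high Pi passed the test. Its root values were 208, 196 and 193 FPKM in bHLH6 OV, 223, 202 and 206 in spx4, 215, 257 and 226 in WT at low Pi and 204, 202 and 196 in WT at high Pi. The shoot values of GI were 178, 194 and 208 FPKM in bHLH6 OV, 297, 233 and 250 in spx4, 190, 245 and 246 in WT at low Pi and 218, 220 and 221 in WT at high Pi. The changes of GI ran between -0.19 in bHLH6 OV shoots and 0.24 in spx4 shoots, with limma adjusted p between 0.0991 (low Pi roots, 0.21) and 0.941. In the order of its 8 group means, the libraries of each group overlapped those of the next.

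The ratio of 2 clock genes within a library does not depend on how that library was scaled, and is given here as a description with no test. In shoots the FPKM of TOC1 divided by that of LHY was 0.337, 0.283 and 0.286 in bHLH6 OV, 0.188, 0.225 and 0.230 in spx4, 0.365, 0.385 and 0.345 in WT at low Pi and 0.153, 0.124 and 0.151 in WT at high Pi. Each of the 3 groups lay above WT at high Pi without overlap, and the 3 share those WT libraries. PRR59 over LHY was between 0.268 and 0.331 in bHLH6 OV shoots, 0.206 and 0.223 in spx4, 0.311 and 0.312 at low Pi and 0.105 and 0.120 in WT at high Pi. PRR95 over LHY averaged 1.49 in bHLH6 OV shoots, 1.27 in spx4, 1.66 at low Pi and 0.789 in WT at high Pi. Low Pi shoot replicate 1 had the lowest green-marker sum of its group. Its PRR59 to LHY ratio, 0.312, lay with those of replicates 2 and 3 (0.311 each). Other ratios of that library stood apart. For PRR73 over LHY it was at 3.31 against 3.01 and 2.95, and for PRR95 over PRR73 at 0.482 against 0.562 and 0.573. PRR73 over LHY was between 2.82 and 3.24 in bHLH6 OV shoots, 3.39 and 3.54 in spx4, 2.95 and 3.31 at low Pi and 2.54 and 2.67 in WT at high Pi. GI over LHY was between 2.97 and 3.23 in bHLH6 OV shoots, 2.66 and 3.15 in spx4, 2.54 and 2.78 at low Pi and 2.02 and 2.08 in WT at high Pi. Both ratios thus lay above WT in all 3 groups, as those of TOC1, PRR59 and PRR95 did. PRR37 over LHY was between 0.881 and 0.985 in bHLH6 OV shoots, 0.975 and 1.03 in spx4, 0.714 and 0.780 at low Pi and 0.728 and 0.756 in WT at high Pi, so that low Pi overlapped WT for this pair alone of the 6. All 6 ratios share LHY as divisor, and LHY itself lay below WT at high Pi in every shoot library of the 3 groups. With PRR73 as divisor, the TOC1 ratio of spx4 shoots, 0.0532 to 0.0679, overlapped that of WT at high Pi, 0.0487 to 0.0601. On that divisor TOC1 in bHLH6 OV and low Pi, and PRR59 and PRR95 in all 3 groups, still lay above WT. PRR73 was itself lower in bHLH6 OV shoots.

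In roots, TOC1 over LHY was 1.10, 1.06 and 1.46 in bHLH6 OV, 1.40, 1.36 and 1.66 in spx4, 1.67, 1.38 and 1.68 in WT at low Pi and 1.25, 1.18 and 1.19 in WT at high Pi. The spx4 and low Pi libraries lay above WT at high Pi, and bHLH6 OV libraries lay on both sides of it. PRR59 over LHY in roots averaged 1.01 in bHLH6 OV, 1.57 in spx4, 1.63 at low Pi and 1.09 in WT at high Pi. All root libraries had a higher TOC1 and PRR59 level relative to LHY than any shoot library.

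**Figure D3:**
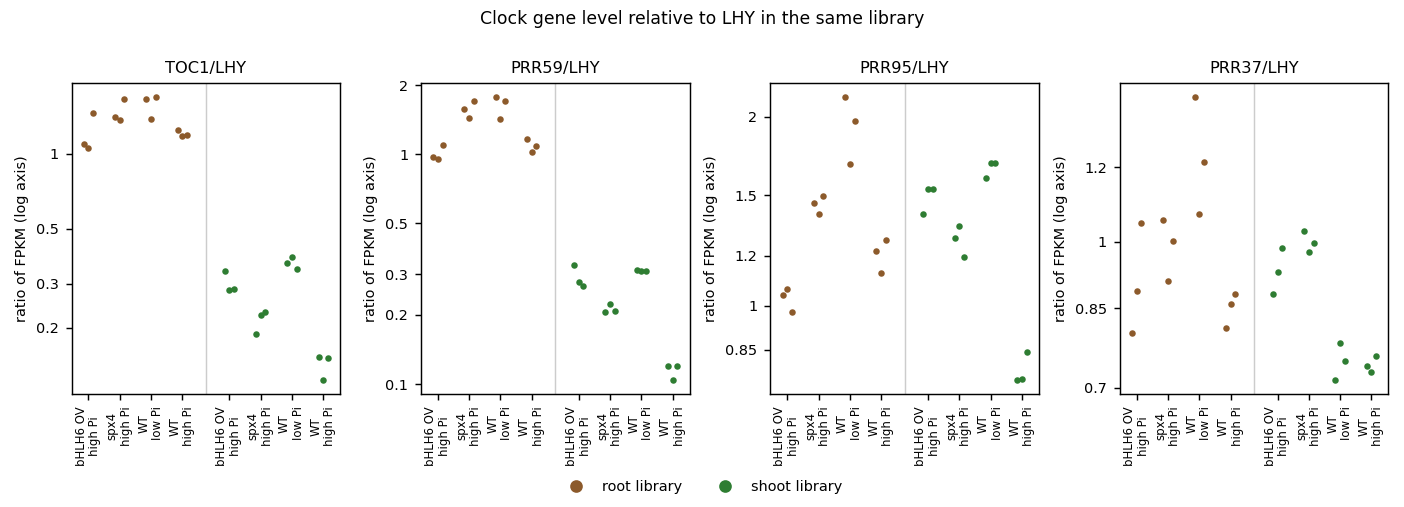
FPKM of TOC1, PRR59, PRR95 and PRR37 divided by the FPKM of LHY in the same library (log axes, which differ between panels), with roots left and shoots right of the grey line and 1 point per library. In shoots the TOC1, PRR59 and PRR95 ratios of all 3 groups lie above those of WT at high Pi, the highest TOC1 ratio being 0.385 at low Pi and the lowest 0.124 in WT.

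LOC_Os08g27870 (Chr8:16994594-16996882, minus strand), annotated as EARLY FLOWERING 4, was on in spx4 and near 0 elsewhere. It had 65.4, 67.0 and 67.7 FPKM in spx4 roots (1302, 1458 and 1430 reads) and 74.4, 80.6 and 66.4 FPKM in spx4 shoots (679, 960 and 677 reads). In roots of the other groups 3 reads were found in the 3 bHLH6 OV libraries together, 0 in WT at low Pi and 1 in WT at high Pi. In shoots the 3 libraries together held 20 reads in bHLH6 OV (15 of them in replicate 2, at 1.07 FPKM), 4 in WT at low Pi and 0 in WT at high Pi. All 6 spx4 libraries thus lay far above the other 18. Since the background of the spx4 line is not given, the mutation and another difference between the lines cannot be told apart here. Against WT at high Pi, the ratio of pooled reads in roots, on the deposited library scale, was 3307. Its counting interval (exact, 95%) of 593 to 130638 rests on the single WT read. In shoots spx4 was at least 326-fold higher, taking 3 reads as the limit that a count of 0 allows in each WT library. The interval and the limit cover counting error only, not the spread between libraries. They describe a gene taken up for its level in spx4 and are no test. The gene passed the filter of a mean of at least 1 FPKM through its spx4 libraries. Root and shoot levels of spx4 overlapped, at 66.7 ± 1.15 and 73.8 ± 7.13 FPKM (SD, n = 3 each).

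The gene next to it, LOC_Os08g27860 (Chr8:16988474-16991367, plus strand), carries the same EARLY FLOWERING 4 annotation, and 3226 bases lie between them. In spx4 roots it had 5.81, 5.20 and 4.30 FPKM against 11.0, 10.4 and 11.8 FPKM in WT roots, and in spx4 shoots 8.58, 6.58 and 6.29 FPKM against 11.8, 11.5 and 11.4 FPKM in WT shoots. The spx4 libraries lay below all WT libraries in both tissues. The log2 fold change of LOC_Os08g27860 was -0.99 in roots (SE 0.13, limma adjusted p = 0.00113) and -0.64 in shoots (SE 0.11, limma adjusted p = 0.00837), and both calls held under every alternative run. Since the pair may share sequence, reads could be split between the 2 by the counting, which was not tested. Of the 10 nearest rows, 5 on each side, LOC_Os08g27860 was the 1 called in spx4 in either tissue, among 4 tested. The 5 rows on the other side had 0 reads in all 24 libraries. The EARLY FLOWERING 4 genes on other chromosomes, ELF4a (LOC_Os11g40610) and ELF4b (LOC_Os03g29680), were not called in spx4 in either tissue. ELF4a averaged 12.1 ± 0.451 FPKM in spx4 shoots and 13.9 ± 0.279 FPKM in WT shoots, and ELF4b 12.8 ± 0.722 FPKM in spx4 roots and 12.6 ± 1.31 FPKM in WT roots (SD, n = 3 each).

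**Figure D4:**
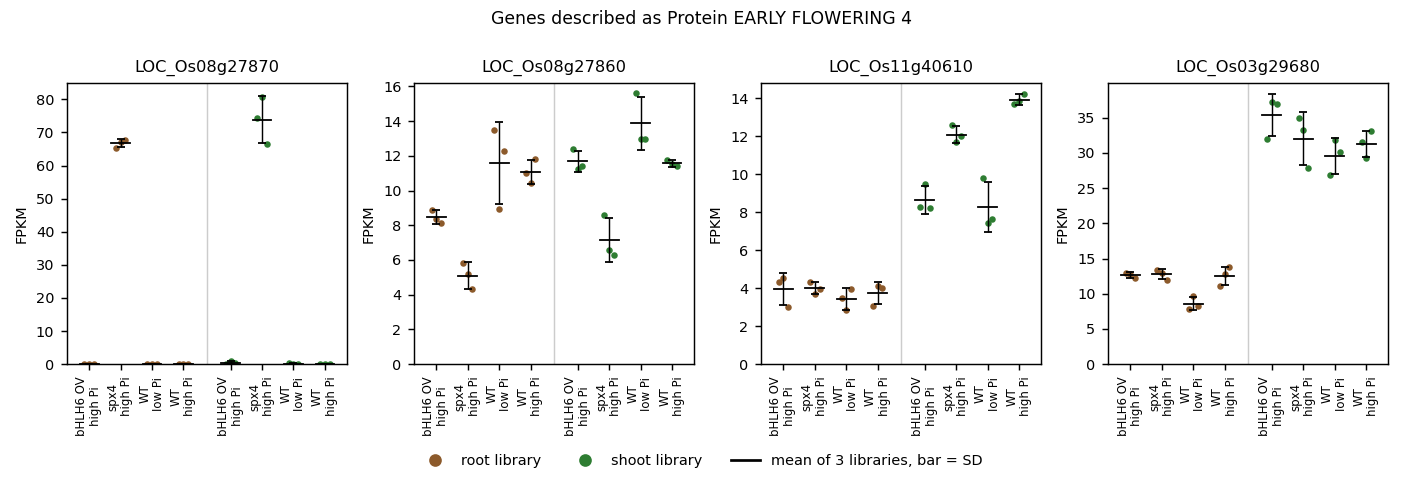
FPKM (vertical axes, from 0) of the 4 genes annotated as EARLY FLOWERING 4 in the 24 libraries, with roots left and shoots right of the grey line; points are libraries, the horizontal line the mean of 3 and the bar 1 SD. LOC_Os08g27870 stands at 65.4 to 80.6 FPKM in spx4 alone of the groups, while its neighbour LOC_Os08g27860 is lower in spx4 than in WT in both tissues.

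Of 9 other clock components, which include the evening complex and the light-sensing ZTL and FKF1 proteins that target clock proteins for degradation, 9 passed the filter in each tissue. In bHLH6 OV roots none was called higher and 1 lower: LUX, the MYB-type member of the evening complex, averaged 1.84 ± 0.471 FPKM against 6.04 ± 0.66 FPKM in WT (log2 fold change -1.32, limma adjusted p = 0.000147). In bHLH6 OV roots 18.0% of all genes were called. In bHLH6 OV shoots 2 of the 9 were called higher and 2 lower, where 31.3% of all genes were called, 14.0% higher and 17.3% lower. There LUX averaged 4.89 ± 1.04 FPKM against 0.825 ± 0.131 FPKM in WT (SD, n = 3 each; log2 fold change 1.68, limma adjusted p = 4.5e-05). FKF1 rose by 0.92 and ELF4a and ELF3-1 fell, at -0.63 and -0.37 (limma adjusted p = 0.00209, 0.000701 and 0.00666), the last not on the TPM scale (-0.15). LUX thus moved in opposite directions in the 2 tissues, and the difference, -3.00 root minus shoot, was itself past the test (SE 0.23, limma adjusted p = 2.39e-08). The median change of the 9 was 0.01 in both tissues.

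In WT at low Pi, FKF1 and LUX were the 2 called higher in each tissue. FKF1 averaged 4.55 ± 0.844 FPKM in low Pi shoots against 0.709 ± 0.148 FPKM at high Pi (SD, n = 3 each), and each low Pi root library lay above all WT root libraries at high Pi. The FKF1 changes were 1.69 in shoots and 0.74 in roots (limma adjusted p = 1.46e-05 and 0.000271), and the shoot one was 1.81 without low Pi shoot replicate 1. LUX rose by 1.00 in roots and 0.61 in shoots (limma adjusted p = 0.000421 and 0.0127). Called lower were 3 in low Pi roots and 2 in low Pi shoots, among them ELF4b in roots (-0.50, limma adjusted p = 0.00168) and ELF3-1 and ELF4a in shoots (-0.70 and -0.69, limma adjusted p = 4.92e-05 and 0.000163). The 5 of 9 called in roots stand beside 31.4% of all genes, and the 4 of 9 in shoots beside 48.2%. In spx4 the single call among the 9 in each tissue was the neighbour gene LOC_Os08g27860, where 2.46% of all genes were called in roots and 2.14% in shoots.

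Photoreceptors, the phytochromes and cryptochromes that set the clock by light, were 6 in number and all passed the filter. At low Pi 5 of the 6 were called lower in shoots and none higher, with a median of -0.56 beside -0.05 over all genes, of which 48.2% were called, 22.2% higher and 26.0% lower. The 6 green markers had a median of -0.58 in the same shoots, with 0 of 6 called, and their part in the result was not tested. The largest falls were those of CRY2 (28.1 ± 3.42 FPKM at low Pi against 53.1 ± 2.3 FPKM at high Pi, SD, n = 3 each; log2 fold change -0.90, limma adjusted p = 2.97e-05), CRY1a (-0.73, limma adjusted p = 0.00185) and CRY1b (-0.72, limma adjusted p = 0.00643). Without low Pi shoot replicate 1 these were -0.83 for CRY2, -0.58 for CRY1a and -0.46 for CRY1b. In low Pi roots, where 31.4% of all genes were called, 3 were called lower, CRY1a the most (-0.92, limma adjusted p = 0.000868), and 1 higher, PHYC (0.33, limma adjusted p = 0.0061). Green markers were lower in these roots, 5 of 6 called, and their part in the result was not tested. In bHLH6 OV shoots 2 of 6 were called lower, where 17.3% of all genes were, CRY2 at -0.84 (limma adjusted p = 0.000123) and PHYA at -0.27 (limma adjusted p = 0.0145), a call that ended on the TPM and median-ratio scales, when bHLH6 OV shoot replicate 3 was left out and when the second WT shoot library was. The 6 green markers had a median of -0.41 in bHLH6 OV shoots, with 1 called lower, and their part in these falls was not tested. In bHLH6 OV roots, where 18.0% of all genes were called, limma called 0 of the 6 photoreceptors. It also called 0 in spx4, where 2.46% of all genes were called in roots and 2.14% in shoots. An unadjusted limma p under 0.05 was found for 1 in bHLH6 OV roots, 0 in spx4 roots and 1 in spx4 shoots.

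Of 10 photoperiodic flowering genes, 3 passed the filter in roots and 5 in shoots. At low Pi 2 of 5 were called higher and 2 lower in shoots, where 48.2% of all genes were called, 22.2% higher and 26.0% lower. COL4, a CONSTANS-like repressor of flowering, had 22.5, 34.6 and 39.8 FPKM in low Pi shoots against 103, 102 and 118 FPKM at high Pi. This was a log2 fold change of -1.74 (SE 0.18, limma adjusted p = 2.14e-05), and -1.51 without low Pi shoot replicate 1. Ghd7, a repressor of flowering in long days, was lower as well, at 0.384 ± 0.0775 FPKM against 1.35 ± 0.322 FPKM (SD, n = 3 each; -0.76, limma adjusted p = 0.00341). The 2 higher calls in shoots were DTH2 (0.55) and DTH8 (0.52, limma adjusted p = 0.0451), and the DTH8 call ended with no filter and without low Pi shoot replicate 2 or 3 or WT shoot replicate 1 or 2. In low Pi roots 1 of 3 was called, beside 31.4% of all genes, DTH2, at 0.50 (limma adjusted p = 0.00346). For bHLH6 OV limma called 0 flowering genes, beside 18.0% of all genes in roots and 31.3% in shoots. The spx4 count was 0 too, but there the shares over all genes were only 2.46% (roots) and 2.14% (shoots). At such low shares, a count of 0 among the 3 or 5 genes tested does not show that spx4 left them unchanged. An unadjusted limma p under 0.05 was found for 1 in bHLH6 OV roots, 1 in spx4 roots, 0 in bHLH6 OV shoots and 0 in spx4 shoots.

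**Figure D5:**
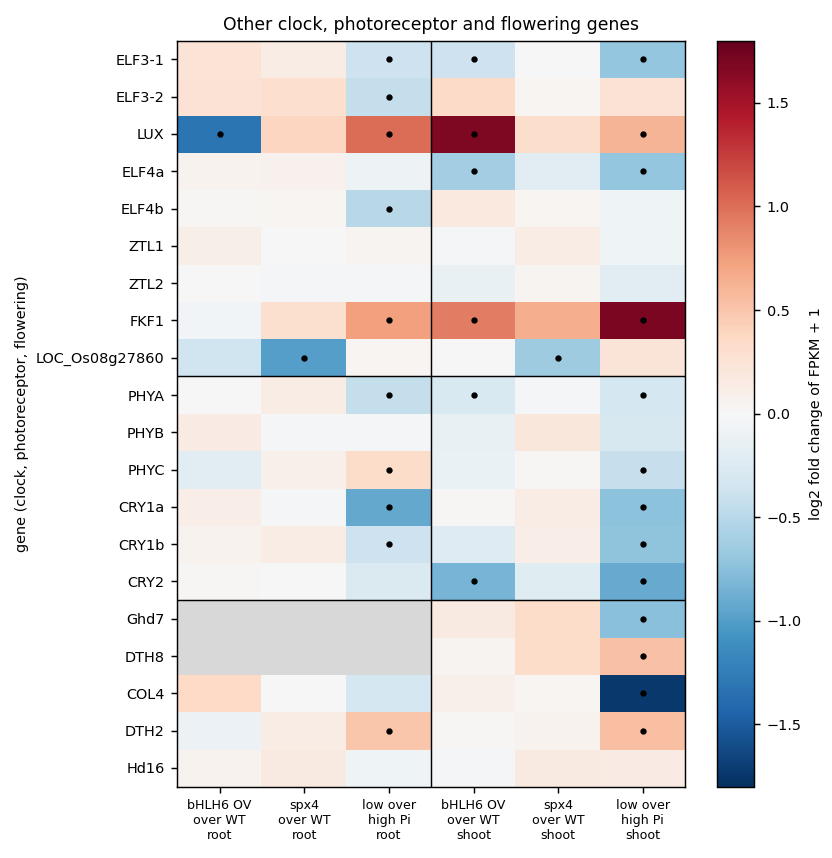
Log2 fold change of FPKM + 1 against WT at high Pi (colour, blue lower and red higher) for the other clock genes, photoreceptors and flowering genes from top to bottom, roots in the left 3 columns and shoots in the right 3; a black dot marks a limma adjusted p under 0.05 and grey a gene not tested. LUX is blue in bHLH6 OV roots (-1.32) and red in bHLH6 OV shoots (1.68), and COL4 (-1.74) and FKF1 (1.69) stand out in shoots at low Pi.

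The patterns of single genes most like a member were ranked by Pearson correlation over the 24 libraries after the mean of each tissue had been taken away, among 5803 genes with a mean of at least 5 FPKM in both tissues and a description. The libraries share their controls and growth, and no p-value is given. Among the members LHY was closest to PRR73 (0.87) and PRR37 (0.67), while TOC1 was at 0.04 with LHY, 0.89 with PRR59 and 0.71 with PRR95. The 3 genes most like LHY were the FMO-like gene LOC_Os09g37620 (0.91), the exocyst component gene LOC_Os03g58970 (0.89) and the C2H2 zinc finger gene LOC_Os08g44050 (0.88). Most opposed to LHY were LOC_Os02g51710, with a PLAT/LH2 domain (-0.91), the myo-inositol-1-phosphate synthase gene LOC_Os03g09250 (-0.90) and the proteasome subunit gene LOC_Os08g43640 (-0.89). TOC1 was most like the sugar isomerase domain gene LOC_Os12g03720 (0.93) and the kinase genes LOC_Os11g36200 and LOC_Os07g42940 (0.92 each). For LOC_Os08g27870, among 9304 genes with a mean of at least 1 FPKM in both tissues, they were the nitrite/sulphite reductase domain gene LOC_Os02g52730 (0.97), the MutS gene LOC_Os07g30240 and the PDZ domain gene LOC_Os05g05390 (0.95 each). Since LOC_Os08g27870 was on in spx4 alone, this ranking follows how far spx4 stood from the other groups. LOC_Os02g52730 averaged 88.7 FPKM in spx4 roots and 30.4 in spx4 shoots, against 0.218 to 2.76 in the other groups. LOC_Os07g30240 had 11.3 FPKM in spx4 roots against 0.0125 to 0.0577 in the other roots. The former passed the filter through spx4 in both tissues and the latter in roots.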

How the data were processed

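The authors deposited 1 table of FPKM (reads scaled by gene length and a factor for each library) for 57668 gene rows in 24 libraries. It is the only file used, and all of its value columns were matched to samples. The authors' FPKM values were used as deposited. Per the submitters' processing notes, HISAT2, StringTie, featureCounts 1.5.0-p3 and DESeq2 were used; the genome build is not given in the sources used here. Per the labels' protocols, libraries were made with a NEBNext Ultra kit. FPKM times gene length fell on whole steps (tolerance 0.01 of a read) for 100% of values, which gave the reads behind each value. What the FPKM were divided by came to between 1.153 and 1.299 times the assigned reads in roots and between 0.733 and 1.039 times in shoots. The per-library scale thus differs between the tissues, and also between groups of shoots. There it was 0.894 to 1.039 in bHLH6 OV and 0.733 to 0.775 in spx4. In WT shoots it was 0.816 to 0.986 at low Pi and 0.773 to 0.844 at high Pi.

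Groups follow the labels, 3 libraries each. Values were tested as log2(FPKM + 1) in limma 3.58.1 (R 4.3.3; empirical Bayes, robust, with a trend) with 1 mean per group, over the 12 libraries of a tissue or, for root against shoot and for effects root minus shoot, over all 24. The filter kept genes averaging 1 FPKM or more over the libraries fitted, and p-values were adjusted by Benjamini and Hochberg over all of them. Fold changes on this scale understate those of low genes. The p-values measure the spread between libraries of 3 pooled seedlings. The procedure was run on simulated data with independent noise and a log2 change of 1. That run does not cover smaller changes or errors shared by the genes of a library. The alternatives were a pseudocount of 0.1, no filter, TPM and median-ratio scaling, the replicate number as a block, and each library left out in turn.

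The members, lists and tests were chosen with earlier results of these data known, and rice loci were given their symbols from general knowledge. All 8 members are named; of the lists at most 4 genes per comparison are named, those called with the largest change, and the 3 most alike genes of LHY, TOC1 and LOC_Os08g27870. LOC_Os08g27860 entered the clock list by its annotation. Sequences were not analysed here.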

Additional observations from a re-analysis of the deposited data

Results flagged for a closer look

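The effects below differ between roots and shoots by a direct test of the difference (limma, root minus shoot on the log2 scale, adjusted p under 0.05); causes were not tested. In bHLH6 OV against WT the difference was 1.07 for LHY, 0.78 for PRR73, 0.83 for PRR37 and -0.33 for PRR59. The first 3 were higher in roots and lower in shoots on average. Of all genes tested 29.4% differed here, 15.1% towards root and 14.3% towards shoot. The PRR59 call ended in 10 of the alternatives. Among the other clock genes it was -3.00 for LUX, -0.97 for FKF1 and 0.69 for ELF4a, and among photoreceptors 0.85 for CRY2. The ELF4a difference was 0.53 and did not pass on the TPM scale (limma adjusted p = 0.0906).

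At low against high Pi in WT the difference was 0.48 for PRR37, -0.43 for PRR95, -0.84 for PRR59 and -0.95 for TOC1. Of all genes tested 37.9% differed here, 18.6% towards root and 19.3% towards shoot. The PRR37 call ended in 3 of the alternatives and the PRR95 call in 9. In the lists it was 1.42 for COL4, -0.95 for FKF1, 0.74 for PHYC and -0.69 for ELF3-2. In roots the 6 green markers were called higher in bHLH6 OV, 6 of 6, and lower at low Pi, 5 of 6. In bHLH6 OV shoots 1 of the 6 was called lower. The part of the green markers in these differences was not tested.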

How the results depend on the processing

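Over the 7 clock genes and 10 comparisons there were 70 tests of a gene, 28 of them called. Of these, 17 kept the call and direction under every alternative, 11 lost the call under at least 1 and 0 changed direction; of 42 not called, 5 gained a call. The spx4 shoot count of called clock genes was 0 on the TPM scale, against 1. Leaving out 1 library moved the count to between 0 and 2 for low Pi roots (3 with all libraries), 2 and 4 for the low Pi difference between tissues (4), 1 and 2 for bHLH6 OV roots (2) and 0 and 1 for spx4 shoots (1). With TPM in place of the deposited scale, WT root against shoot reversed for GI (0.37), Hd16 (0.33) and LOC_Os08g27860 (0.42). The cause of these shifts was not tested. Between no 2 groups that were set against each other did all 3 same-number correlations pass 0.1, so numbers were not taken to pair the libraries. They did pass between bHLH6 OV and spx4 roots (0.224, 0.289 and 0.477), which share the root fit but were not compared. Every library correlated best with its own number between bHLH6 OV and WT at high Pi in both tissues and between bHLH6 OV and spx4 roots. The same held between roots and shoots of WT at high Pi, of bHLH6 OV and of spx4, but not of WT at low Pi. This is a hint from the data and not the design. With the number as a replicate block the count for the low Pi difference between tissues was 3 instead of 4, and the other 9 counts were unchanged. Over all genes, the bHLH6 OV root count of 3975 was 2156 to 2568 without a WT root library, the spx4 root count of 543 was 331 to 344 without a WT root library or spx4 root replicate 2, and the spx4 shoot count of 428 was 254 to 277 without a WT shoot library. With 3 libraries a group, a change short of the threshold is not shown to be absent.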
